A study of Mus musculus with 4 samples.

Results

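The ADP-ribosylation factors *Arf1* to *Arf6* are small GTPases of the Golgi and endosomes, and their mRNAs were followed here in a CUGBP1 RIP-Chip experiment in mouse myoblasts. Members were the probe sets that the platform annotation pairs with exactly 1 of these 6 genes. The rule found 7 probe sets (2 for *Arf1*, 1 for each other gene) among 21044 probe sets that name a single gene. RNA was recovered from lysates of proliferating C2C12 (LKO-1) cells with a monoclonal antibody against CUGBP1 (CUGBP1 IP) or with normal IgG (control IgG), and 2 arrays were available for each. Both groups came from the same line, a derivative of the C2C12 myoblast line that carries an empty lentiviral vector and is kept in puromycin, so all samples share the vector and the drug. Input arrays were not analysed here, and the values therefore describe RNA recovered on beads, not the amount of each transcript in the lysate. Whether replicates came from separate cultures is not given in these sources, and p-values measure only the spread between these arrays, which may be technical.

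Arf proteins cycle between a GDP-bound form and a GTP-bound form that holds on to membranes through an N-terminal myristoyl group. Exchange factors load them with GTP, GTPase-activating proteins switch them off, and in the active form they recruit coats, adaptors and lipid-modifying enzymes. Class I (*Arf1*, *Arf2*, *Arf3*) and class II (*Arf4*, *Arf5*) act mainly at the Golgi and the early secretory pathway, whereas *Arf6*, the class III member, acts at the plasma membrane and endosomes. CUGBP1, encoded by *Celf1*, binds GU-rich elements and recruits deadenylases to mRNAs. The comparison asks which of the Arf transcripts came down with CUGBP1 above the level recovered by IgG.

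Values are intensities divided by the 5th percentile of the same array, so a probe set without transcript reads about 1. The median over the array was 1.31 and 1.47 with the CUGBP1 antibody, and 1.08 and 1.22 with IgG. Background was set by the probe sets of olfactory and vomeronasal receptors, which had 95th percentiles from 1.09 to 1.29 on the 4 arrays. All 7 Arf probe sets were above that limit on all 4 arrays, as were 36.7% of the tested probe sets.

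All 6 Arf transcripts had more signal in the CUGBP1 IP than in control IgG in the deposited values, although quantile normalization turned the sign for *Arf4*, *Arf5*, *Arf6* and 1 of the *Arf1* probe sets. This was the usual direction on these arrays, since the ratio was above 1 for 93.3% of all probe sets and for 99.9% of the 7727 that were above background on every array. None of the Arf differences passed the test. The signal-to-negative ratio (mean of both CUGBP1 IP values over mean of both IgG values) ran from 1.71 for *Arf5* to 4.51 for *Arf3*, against a median of 1.22 over all probe sets and 1.61 over those above background on every array. Of the latter, 58.8% had a lower ratio than *Arf5*, 69.0% than *Arf6*, 78.2% than *Arf2*, 83.5% than *Arf4*, and 87.4% and 87.7% than the *Arf1* probe sets. limma called 0 of the 7 probe sets at an adjusted p under 0.05, with 1 (*Arf2*) at an unadjusted p under 0.05. Over the whole table limma called 2.09% of the probe sets in either direction and put 29.1% at an unadjusted p under 0.05. Both CUGBP1 IP values exceeded both IgG values for 6 of the 7 probe sets, all but that of *Arf5*, and for 66.3% of all probe sets (78.0% of those above background). The median log2 difference over the 6 genes was 1.26, which was 0.97 above the median of all genes and 0.54 above that of the 7063 genes above background on every array. With quantile normalization the Arf median was instead -0.11 relative to all genes.

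*Arf3*, a class I Arf of the trans-Golgi network, stood highest among the members. Its probe set (10432256) read 23.29 and 25.38 with the CUGBP1 antibody, and 2.94 and 7.84 with IgG. The CUGBP1 IP arrays lay close together and well above both control arrays, while the control arrays were themselves 2.67-fold apart. The means were 24.3 ± 1.48 and 5.39 ± 3.46 (SD, n = 2 arrays each). On the log2 scale the difference was 2.34 with an SE of 1.31 (limma adjusted p = 0.194). *Arf3* ranked 299 of 21044 by ratio, with 98.6% of the probe sets lower. Among the probe sets that were above background on every array, where the 95th percentile of the ratio was 4.01, 96.3% were lower than *Arf3*.

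*Arf1*, which recruits the COPI coat and the AP-1 adaptor to Golgi membranes, was measured by a pair of probe sets that behaved alike. The first (10386370) read 16.83 and 26.53 with the CUGBP1 antibody, and 4.31 and 12.56 with IgG, and the second (10456974) read 29.83 and 38.32 against 6.56 and 19.69. On both, the groups did not overlap, but control IgG replicate 2 lay nearer to CUGBP1 IP replicate 1 than to the other control array on the linear scale. Their ratios were 2.57 and 2.60. Log2 differences were 1.52 (SE 1.34, limma adjusted p = 0.354) and 1.57 (SE 1.34, limma adjusted p = 0.340). The annotation gives the second probe set an additional transcript accession. The probe sequences were not used here. Whether the second probe set measures the *Arf1* locus or a related copy, or either hybridizes with other Arf transcripts, was therefore not tested.

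*Arf2*, the remaining class I gene, was a low-intensity transcript with little spread. Its probe set (10381744) read 2.63 and 2.74 with the CUGBP1 antibody, and 1.19 and 1.34 with IgG. Replicates differed by 1.04-fold in the CUGBP1 IP and 1.13-fold in control IgG, and the groups did not overlap. The ratio was 2.12 and the log2 difference 1.09 (SE 0.35, limma adjusted p = 0.0625), the closest of the members to the threshold. The SE follows the spread of probe sets of similar intensity, and without that intensity trend it was 0.10 (limma adjusted p = 0.143). The unadjusted limma p was 0.00195 with the trend and 0.00102 without it, where no probe set of the whole table was called. *Arf2* passed the threshold with arrays scaled to their medians (log2 difference 0.80, limma adjusted p = 0.00452), where 6.47% of all probe sets were called higher. It also passed with an offset of 1 before log2 (0.70, limma adjusted p = 0.0375), where 3.63% were called higher. Both control readings lay just above the receptor limits of their arrays, 1.09 and 1.16, and after subtraction of the 5th percentile, which leaves the signal over the floor, the ratio of *Arf2* was 6.36.

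**Figure D1:**
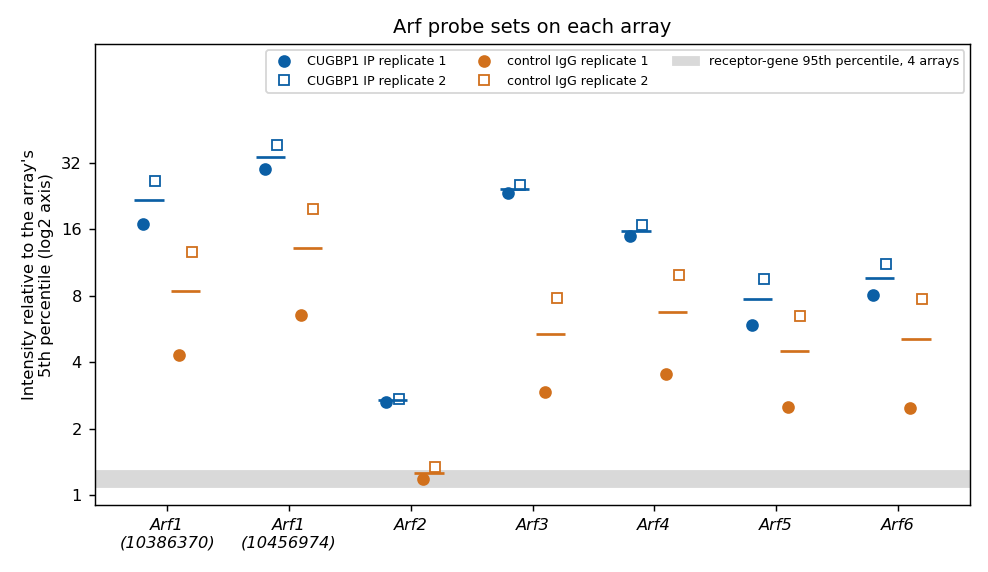
Intensity relative to the 5th percentile of the array (log2 axis) for each Arf probe set, with 1 symbol per array, horizontal bars at the means of 2 arrays, and the grey band spanning the receptor-gene 95th percentiles of the 4 arrays (1.09 to 1.29). The CUGBP1 IP symbols lie above both control IgG symbols for every probe set except that of *Arf5*, and control IgG replicate 2 lies well above replicate 1 for all but *Arf2*.

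The class II genes gave intermediate and low ratios. *Arf4*, which acts between the endoplasmic reticulum and the Golgi (probe set 10413304), read 14.86 and 16.62 with the CUGBP1 antibody, and 3.53 and 9.94 with IgG. The groups did not overlap, but control IgG replicate 2 lay nearer to CUGBP1 IP replicate 1 than to the other control array. The ratio of 2.34 corresponded to a log2 difference of 1.41 with an SE of 1.28 (limma adjusted p = 0.368). *Arf5*, a partner of *Arf4* in the early secretory pathway (probe set 10536746), read 5.90 and 9.47 with the CUGBP1 antibody, and 2.52 and 6.48 with IgG. Here the groups overlapped, since CUGBP1 IP replicate 1 was below control IgG replicate 2. Its ratio of 1.71 was the lowest of the members, and the log2 difference was 0.89 with an SE of 1.01 (limma adjusted p = 0.462).

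*Arf6*, the class III member, which acts in endosome recycling and actin remodelling at the cell surface, was also near the lower end. Its probe set (10396108) read 8.06 and 11.09 with the CUGBP1 antibody, and 2.47 and 7.72 with IgG. The lower CUGBP1 IP array was only 1.04 times the higher control IgG array, so the groups were barely apart. The ratio was 1.88 and the log2 difference 1.11 (SE 1.10, limma adjusted p = 0.402).

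The study designated the top 5% of ratios as associated with CUGBP1, and the same share was taken here of the 21044 probe sets. The study ranked its own set of mRNAs and gave 3-fold, a whole number, as the lowest enrichment of those it designated. Its limit on the ratio may therefore be above the one here. *Arf3* (4.51) was above 3, and both *Arf1* probe sets (2.57 and 2.60) were below it. A place inside the limit here is not a place in the study's list. The 95th percentile here was 2.57, and 1053 probe sets (5.0%) reached it. Of the Arf probe sets 3 were among them, those of *Arf3* and *Arf1*. The first *Arf1* probe set held rank 1053, the last place inside the limit, and the second held rank 1020. *Arf4* followed outside it at rank 1392, then *Arf2* (1852), *Arf6* (2640) and *Arf5* (3572). The place of *Arf1* depended on single arrays. Without CUGBP1 IP replicate 2 or without control IgG replicate 1 neither *Arf1* probe set was in the top 5%, and only *Arf3* was. Without control IgG replicate 2, *Arf4* joined both genes (ratio 4.46, limit 3.97). After subtraction of the 5th percentile, *Arf2* was the only member inside (6.36, limit 5.68), and *Arf3* was just outside at 5.32. Among the 7727 probe sets above background on every array, only *Arf3* of the members exceeded the 95th percentile of 4.01. Of these probe sets, 87.4% had a lower deposited ratio than the first *Arf1* probe set.

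**Figure D2:**
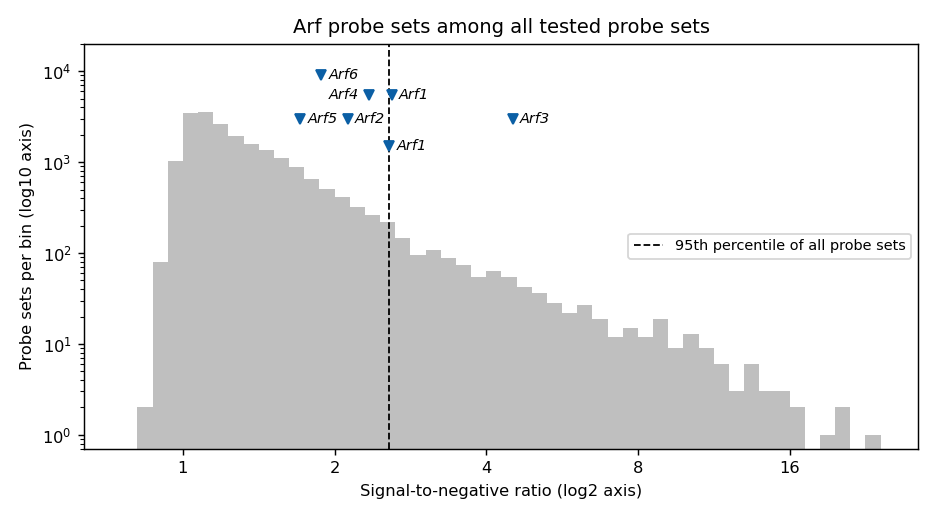
Histogram of the signal-to-negative ratio (log2 axis) over the 21044 tested probe sets, with the number per bin on a log10 axis, the dashed line at the 95th percentile (2.57), and triangles at arbitrary heights for the 7 Arf probe sets. *Arf3* (4.51) lies right of the line, the *Arf1* probe sets (2.57 and 2.60) on and beside it, and the others left of it.

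The control arrays stood apart for most Arf transcripts. Control IgG replicate 2 over replicate 1 was 2.57 to 3.13 for the 6 probe sets other than that of *Arf2*, higher than for 96.5% to 98.1% of all probe sets, whose median was 1.13. Among probe sets above background on every array the median was 1.48, and 90.4% to 94.8% lay lower than these 6. For *Arf2* it was 1.13. The CUGBP1 IP arrays were nearer to each other, with replicate 2 over replicate 1 between 1.04 for *Arf2* and 1.61 for *Arf5*. Against control IgG replicate 1 alone, the ratio was 8.28 for *Arf3*, 3.88 for *Arf6* and 3.05 for *Arf5*. Against control IgG replicate 2 alone, these were 3.10, 1.24 and 1.19. *Arf2* changed least, from 2.26 to 2.00. The 2 *Arf1* probe sets went from 5.03 and 5.19 to 1.73 on both, and *Arf4* from 4.46 to 1.58. All of these ratios were above 1 against either control array.

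**Figure D3:**
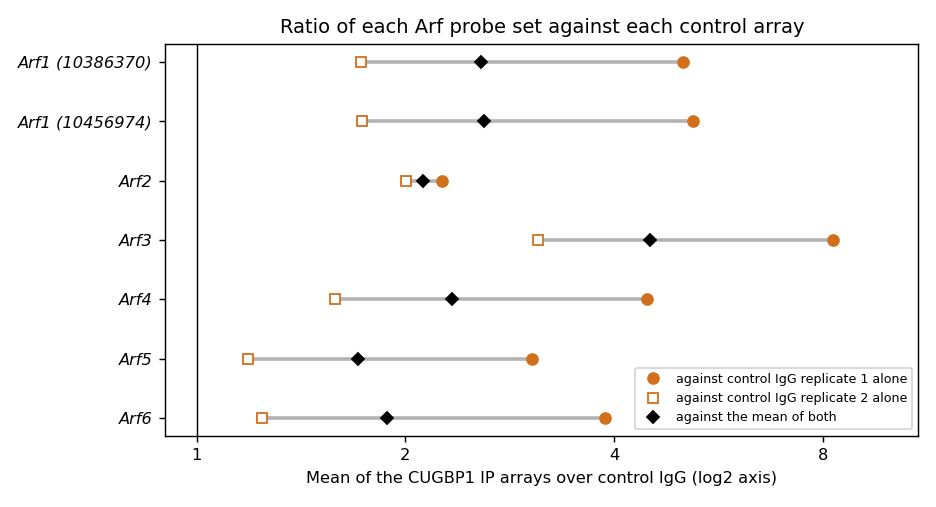
Mean of the CUGBP1 IP arrays over control IgG replicate 1 alone (circles), over replicate 2 alone (squares) and over the mean of both (diamonds) for each Arf probe set, on a log2 axis with a line at 1. The grey bars are short for *Arf2* (2.00 to 2.26) and long for the others, for example 3.10 to 8.28 for *Arf3*, and none reaches 1.

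The direction of 3 Arf genes, and of 1 of the *Arf1* probe sets, depended on how the arrays were scaled. The median log2 difference of all probe sets was 0.29 in the deposited values, 0.00066 with arrays scaled to their medians and -0.016 with quantile normalization, which gives all arrays the same distribution. Relative to the median of 0.29 the deposited log2 differences were 2.05 for *Arf3*, 1.23 and 1.28 for *Arf1*, 1.12 for *Arf4*, 0.83 for *Arf6*, 0.80 for *Arf2* and 0.60 for *Arf5*. With quantile normalization *Arf3* was at 0.69 (SE 0.27, limma adjusted p = 0.293) and *Arf2* at 0.33 (SE 0.15, limma adjusted p = 0.381). Those of *Arf4*, *Arf6* and *Arf5* were then below 0, at -0.28, -0.46 and -0.66 (limma adjusted p = 0.660, 0.416 and 0.216). The *Arf1* probe sets lay at -0.20 and 0.03. *Arf2* and *Arf3* were higher in the CUGBP1 IP under each of the 3 scalings, where the only call was that of *Arf2* with arrays scaled to their medians, whereas the sign for *Arf4*, *Arf5*, *Arf6* and the first *Arf1* probe set differed between scalings.

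**Figure D4:**
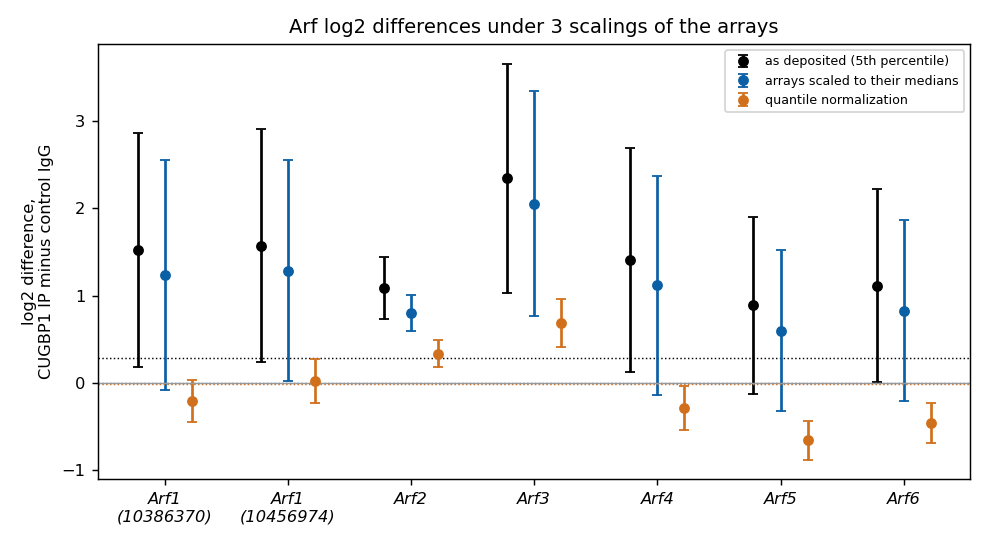
Log2 difference (CUGBP1 IP minus control IgG) of each Arf probe set with its moderated SE under the deposited scaling, with arrays scaled to their medians and with quantile normalization; dotted lines mark the median of all probe sets in each. *Arf3* and *Arf2* stay above 0 in all 3, and *Arf4*, *Arf5*, *Arf6* and 1 *Arf1* probe set fall below 0 with quantile normalization (-0.28, -0.66, -0.46 and -0.20).

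The order of the members by ratio was *Arf3*, *Arf1*, *Arf4*, *Arf2*, *Arf6* and *Arf5*, with the second, brighter probe set standing for *Arf1*. Neighbours were compared by the log2 difference between both genes within each array, which any scale factor of an array leaves unchanged. *Arf3* minus *Arf1* was -0.36 and -0.59 with the CUGBP1 antibody, and -1.16 and -1.33 with IgG, so *Arf3* gained 0.77 on *Arf1* and the groups did not overlap. *Arf1* minus *Arf4* was 1.01 and 1.21 against 0.89 and 0.99, a gain of 0.17. The exact permutation p was 0.333 for both, the smallest that 2 against 2 arrays can give, and 0.833 after Benjamini-Hochberg adjustment over the 5 neighbouring pairs. For *Arf4* and *Arf2*, *Arf2* and *Arf6*, and *Arf6* and *Arf5* the groups overlapped (exact permutation p from 0.667 to 1.0), so their differences lay within the spread between arrays. The order was set by the same values, and a test of this size cannot show that neighbours are alike.

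The genes whose values over the 4 arrays were nearest to *Arf3* by Euclidean distance on the log2 scale were *Rab1a*, a GTPase of endoplasmic reticulum to Golgi transport (distance 0.14), *Thbs1*, which encodes thrombospondin (0.23), and the transcription factor gene *Atf1* (0.24). *Rab1a* read 24.29 and 27.07 against 2.88 and 8.27, with a ratio of 4.61 (limma adjusted p = 0.190). The nearest to *Arf5* were *Prrx2*, a homeobox gene (0.11), *Tspo*, which encodes a mitochondrial outer membrane protein (0.17), and *Atp5l*, which encodes a subunit of ATP synthase (0.17). Their ratios were 1.68, 1.63 and 1.70. These are descriptions over 4 arrays and no test was made.

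The wider Arf pathway was described by 5 lists, starting with exchange factors and GTPase-activating proteins. The others were effectors outside the coats (with cargo and retrieval receptors), the COPI coat with the AP-1 adaptor, and Arf-like GTPases with Sar1. limma called 0 of the 89 measured genes in either direction, where 1.94% of all genes were called higher and 0.134% lower. At an unadjusted p under 0.05 were 35 of the 89, beside 29.4% of all genes. In the top 5% by ratio were 4, beside 4.97% of all genes. Median log2 differences were 0.30 for exchange factors, 0.67 for GTPase-activating proteins, 0.63 for effectors, 0.90 for coat and adaptor, and 0.63 for Arf-like genes. The median was 0.29 over all genes and 0.72 over genes above background on every array. Only the coat and adaptor list exceeded the latter, and each list also held genes at background on some arrays.

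Exchange factors had no member in the top 5%, and the median log2 difference of the 15 genes was 0.01 above that of all genes. The highest ratios were 1.71 for *Cyth3* and 1.67 for *Iqsec1*, which encode activators of Arf proteins at the cell periphery, and *Cyth2*, of the same family as *Cyth3*, had 1.54. The GTPase-activating proteins (23 genes, 0.38 above all genes) had *Asap1* in the top 5%, with 7.34 and 10.44 against 1.83 and 3.81 (ratio 3.15, limma adjusted p = 0.185), followed by *Smap2* at 2.19. Of the coat and adaptor genes (17 genes, 0.61 above) none was in the top 5%, and *Ap1m1*, an AP-1 subunit gene, had the highest ratio at 2.25 (limma adjusted p = 0.128), with 2.17 for *Copa* and 2.11 for *Copz2*, both of the COPI coat. The Arf-like genes (11 measured of 23 listed, the rest not analysed here) lay 0.34 above all genes, led by *Arl1*, of the trans-Golgi network, at 2.28 (limma adjusted p = 0.405) and *Sar1a*, of the COPII coat, at 2.00.

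In the list of effectors with receptors (23 genes measured of 24, 0.34 above all genes), 3 genes were in the top 5%. All 3 were cargo or retrieval receptor genes, and none was called. *Tmed10*, a p24 cargo receptor gene, read 13.60 and 15.79 with the CUGBP1 antibody, and 2.02 and 3.52 with IgG, with a ratio of 5.31 (limma adjusted p = 0.139) and of 5.06 at its other probe set. *Tmed2*, which encodes its partner, reached 3.75 (limma adjusted p = 0.227), with 3.41 and 3.68 at its other probe sets. *Kdelr1*, the retrieval receptor gene, had 3.31 (limma adjusted p = 0.180) and was named after its value was seen. With quantile normalization the 5 list medians lay between -0.18 and 0.05 relative to all genes.

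Transcripts of the labelled cell type were present. Of 8 myoblast markers, 6 were above background on all arrays, and *Myod1*, the muscle determination factor, read 18.80 and 23.21 with the CUGBP1 antibody, and 1.77 and 3.30 with IgG. Of 11 measured markers of other cell types, 6 were at background on all 4 arrays, among them *Ptprc*, *Epcam* and *Pecam1*, which mark blood, epithelial and endothelial cells. Of the other epithelial markers, the keratin gene *Krt8* was above background on all 4 arrays (1.36 and 1.60 against 1.13 and 1.33) and the cadherin gene *Cdh1* on 2, and their part in the results was not tested. *Cd68* and *Gfap* of the same list were above background on 1 array each, and the tubulin gene *Tubb3* on all 4. The summed intensity of the 11 genes was 14.2 and 17.9 with the CUGBP1 antibody, and 11.6 and 12.5 with IgG. In these sums a gene without transcript counts about 1. *Tubb3* alone read 2.51 and 5.71 with the CUGBP1 antibody, and 1.13 and 1.31 with IgG. It was called higher (ratio 3.37, limma adjusted p = 0.0233).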

How the data were processed

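RNA from 4 immunoprecipitates was hybridized to Affymetrix Mouse Gene 1.0 ST arrays, 1 per sample. The deposited table holds a linear intensity for each of 25175 probe sets, which the authors divided by that array's own 5th percentile. For the summarisation program and any background correction, the sources used here give nothing. A platform annotation paired 21044 probe sets with 1 gene, 1492 with several and 2639 with none. Symbols of 20959 were updated through gene identifiers in a RefSeq table of assembly GRCm38.p6, used for names only. Where 1 value per gene is given, the probe set with the highest mean over the arrays was used.

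Log2 intensities were compared (CUGBP1 IP minus control IgG) with limma 3.58.1 in R 4.3.3, with an intensity trend in eBayes, two-sided, and Benjamini-Hochberg adjustment over the 21044 probe sets. The study ranked transcripts of this experiment by the ratio, and the test was chosen here. The fit, which has 2 residual degrees of freedom before moderation, was run on simulated data. Simulated noise was independent between arrays, whereas same-numbered arrays here deviated together (r = 0.639 across probe sets). The simulation therefore does not give the error rate of the fit on these arrays. Exact permutation tests (two-sided) used SciPy 1.17.1. A value at or below the 95th percentile of 1200 receptor probe sets on its array counted as background. Group and replicate number were read from the sample titles. The number of arrays limits the precision.

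The members and gene lists were chosen with earlier results of these data known. Genes named from a list were the called ones, otherwise the 2 of highest ratio, and the brightest uncalled gene where it adds to these. The genes named as nearest were the 3 closest to the members of highest and lowest ratio. Alternatives were 2 other scalings, an offset, a subtracted floor, a background filter, no trend, robust eBayes, a replicate block, geometric means and leaving out each array.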

Additional observations from a re-analysis of the deposited data

How the results depend on the processing

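The 7 Arf probe sets kept their direction under every alternative except quantile normalization, which turned *Arf1* (10386370, -0.20), *Arf4* (-0.28), *Arf6* (-0.46) and *Arf5* (-0.66); the cause was not tested. limma called 0 Arf probe sets as deposited, 1 with arrays scaled to their medians (*Arf2*, 0.80), 1 with an offset of 1 (*Arf2*, 0.70) and 2 with the replicate number as a block (*Arf2*, 1.09, and *Arf3*, 2.34). Nothing in the sources used here pairs the arrays by number, although same-numbered arrays deviated together (r = 0.639 across probe sets, 2 pairs only). The replicate block called 11809 probe sets higher (56.1%), against 411. Higher calls numbered 1362 with arrays scaled to their medians, 763 with an offset of 1, 270 of the 7727 probe sets above background, and 0 with the 5th percentile subtracted or without the trend (limma, 3665 and 4757 at an unadjusted p under 0.05). Lower calls numbered 29 as deposited, 18 with quantile normalization, 10 with robust eBayes, and 0 with the background filter, with the 5th percentile subtracted or without the trend. Leaving out 1 array gave 0 to 0 calls in either direction, with 1062 to 6085 probe sets at an unadjusted p under 0.05 by limma. Such a fit has fewer arrays, and its 0 says nothing about stability.

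Of the Arf probe sets 3 were in the top 5% by ratio as deposited, and 1 to 4 with an array left out. With quantile normalization and with the background filter 1 remained (*Arf3*), and with the 5th percentile subtracted 1 was there (*Arf2*, ratio 6.36). With arrays scaled to their medians limma called 3 GTPase-activating protein genes (*Arfgap1*, *Acap2*, *Git2*), 1 effector (*Arfip1*), 1 adaptor gene (*Ap1s2*) and 1 Arf-like gene (*Arl15*) higher, 6 of 89, where it called 6.47% of all probe sets higher. Robust eBayes changed no Arf call.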
